A study of Mus musculus with 2 samples.

Results

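The liver clears most surplus amino acids. Transaminases and dehydratases strip the amino group, the urea cycle turns the freed ammonia into urea, and the carbon skeletons are passed to glucose, ketone or energy metabolism. Most of these enzymes are made at high level by hepatocytes, some in the periportal and some in the pericentral zone, and many are known to respond to feeding, glucagon and glucocorticoids. A list of 50 genes of amino acid breakdown and the urea cycle was followed here in the liver of transgenic and wild-type mice. Members were chosen by gene symbol, with each array probe named from its transcript accession, and were grouped by amino acid into 12 groups. All 50 were measured, among 13881 named genes that both arrays detected well above background, and 20660 named genes in all.

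The study compared the livers of CREBH-Tg mice with those of wild-type (WT) mice, both on the C57B6J background. CREBH-Tg mice carry a human cDNA for active CREBH, which is overexpressed chiefly in liver. This transcription factor, the product of Creb3l3 in mice, is held in the membrane of hepatocytes until cleavage releases it, and is known for its action on lipid and acute phase genes. Both groups had received the HFHS diet for 12 weeks, so no group on another diet enters the comparison. Liver RNA was pooled by genotype, and 1 array per pool was hybridised with Cy3-labelled cRNA. The sources used here do not say how many mice made up a pool, nor their age or sex.

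Each genotype thus has a single array and no replicate. The differences are described by size, with no test, since the spread between mice was not measured. Signals are given as multiples of the array's own 75th percentile of signal, which was 309 intensity units on the CREBH-Tg array and 333 on the WT array. A log2 ratio is the CREBH-Tg signal over the WT signal. Signals of different genes come from different probes and are not compared with each other. The first measure of error is the scatter of probes spotted repeatedly on each array. Genes were split into 3 equal classes by signal, and the 95% range of this scatter for a log2 ratio was 0.40 among the dimmest, 0.17 among those between and 0.095 among the brightest. The second is the error that the scanner software assigned to every spot, which gave a 95% range of 0.40 to 0.41 for the members. Neither covers differences between mice, pools or hybridisations, so a ratio past either range is a difference between these arrays. Both also leave out differences between probes of 1 gene. The range of log2 ratios between probes had a median of 0.13 over 3376 genes with several, and of 0.067 over 9 such members. The other 41 members rest on 1 probe.

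The samples carried liver RNA by their markers. All 8 hepatocyte markers were measured, with summed signals of 7092 on the CREBH-Tg array and 6657 on the WT array and a median log2 ratio of 0.081. Mouse Creb3l3 itself was at 125 on the CREBH-Tg array and 125 on the WT array. Its probe is for the mouse transcript, so it does not check a transgene of human cDNA. Of other cell types, 6 of 7 macrophage markers were measured, at a median log2 ratio of -0.080 and summed signals of 152 in CREBH-Tg and 167 in WT liver. The 7 lymphocyte markers had a median of 0.14, with sums of 14.3 in CREBH-Tg and 13.1 in WT liver. That median is the ratio of Ms4a1, in the dimmest signal class and within spot noise. The 7 stellate cell markers had a median of 0.23 (79.1 in CREBH-Tg and 75.3 in WT) and the 6 endothelial markers one of 0.074 (114 in CREBH-Tg and 104 in WT). Cholangiocyte markers (4 of 5 measured) had summed signals of 1.51 in CREBH-Tg and 1.96 in WT liver. Adipocyte markers (3 of 5) had the highest median log2 ratio of the marker lists, 1.55, and sums of 3.71 in CREBH-Tg and 2.50 in WT liver. Adipoq had 0.379 in CREBH-Tg and 0.0822 in WT liver (4.61-fold higher), Retn 0.330 in CREBH-Tg and 0.112 in WT (2.94-fold), and Cfd 3.001 in CREBH-Tg and 2.30 in WT (1.30-fold). Adipoq and Retn were in the dimmest signal class. The kidney tubule markers (2 of 5) had a sum of 0.312 in CREBH-Tg and 0.296 in WT liver. Epcam, Lep, Plin1, Umod, Slc12a1 and Kap did not pass the background threshold on both arrays. In such bulk RNA, fewer cells of a type and less RNA per cell cannot be told apart, and the part of cell makeup in the ratios below was not tested.

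On the brightest probe of each gene, the 50 genes differed little between the genotypes, as did most measured genes, and 1 gene stood apart. Csad, the enzyme that makes hypotaurine on the way to taurine, was 1.83-fold higher in CREBH-Tg liver. No member was 2-fold apart in either direction. Of all measured genes, 0.663% were higher by that factor or more and 0.67% lower. These shares are so small that none among 50 genes is no contrast. Csad alone was 1.5-fold higher or more, beside 2.33% of all genes and 1.12% of those in the brightest class. No member was 1.5-fold lower on its brightest probe, beside 2.23% of all genes. The dimmest of 3 Bhmt probes was lower by that factor, with 125 in CREBH-Tg and 188 in WT liver. Counts this low among 50 genes do not set them apart from all genes. The next farthest from equal were Prodh, the first enzyme of proline breakdown, 1.33-fold lower, and Bhmt, which remethylates homocysteine with betaine, 1.24-fold lower. Of the higher genes, Bcat2, an aminotransferase of branched-chain amino acids, was next at 1.22-fold, followed by the glyoxylate aminotransferase Agxt at 1.21-fold.

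**Figure D1:**
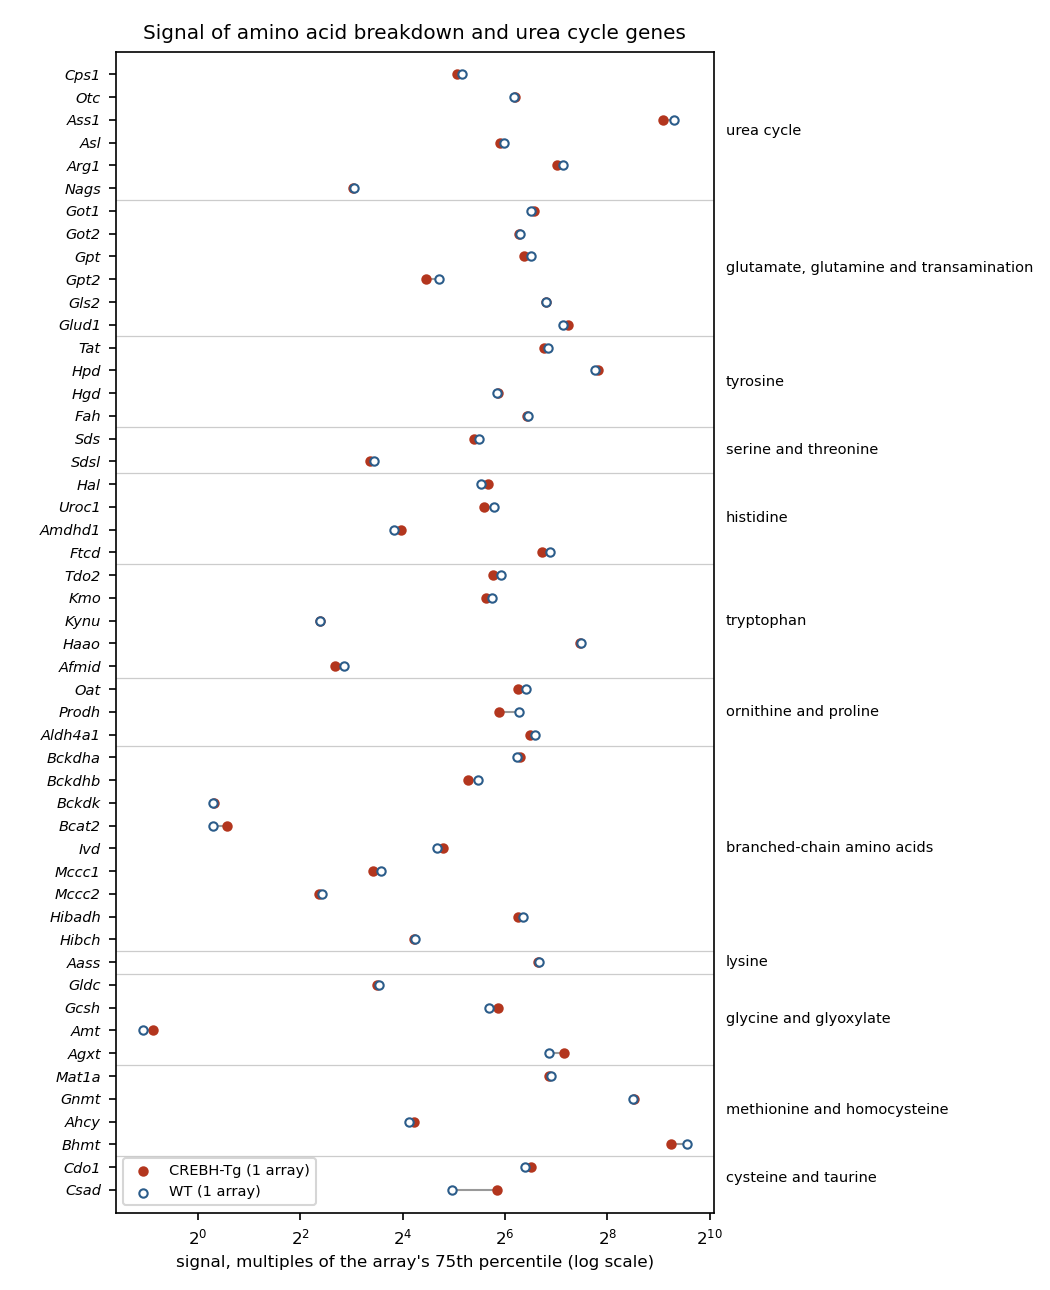
Signal of each of the 50 genes on the CREBH-Tg array (filled) and the WT array (open), as multiples of the array's 75th percentile on a log axis, grouped by amino acid. For most genes the points nearly coincide, and Csad shows the widest gap, 57.3 in CREBH-Tg against 31.3 in WT.

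The median log2 ratio of the 50 genes was -0.016, with the middle of the distribution between -0.12 and 0.059 (quartiles), against a median of 0.027 over all 13881 genes. Most of them are strongly expressed in liver: 47 of the 50 lay in the brightest signal class, where the median over 4627 genes was 0.051. The median of all 50 was thus 0.068 below that of the brightest class. The 47 members in that class had a median of -0.044. Below a log2 ratio of 0 lay 31 of the 50 genes, 62.0%, beside 43.8% of all measured genes, and above 0 lay 19, beside 56.2%. Within the brightest class the shares were 66.0% of 47 members and 33.9% of all genes in it. The member share was the higher in that class under all 10 settings tried, although its size moved between 36.2% and 80.9%. These settings are not separate checks. Median scaling, scaling to detected probes and the value table in effect add a constant to every ratio. The changes of filter on dim probes left the member counts as they were. The sign of the median itself depends on the scaling: with arrays scaled to their medians, which adds 0.089 to every log2 ratio, it was 0.073, and 17 of the 50 lay below 0.

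Past the 95% range of spot noise, 10 genes were higher and 17 lower, and 23 were within it. The corresponding shares over all measured genes were 21% higher and 13.2% lower. In the brightest class, 19.1% of members were higher and 36.2% lower, beside 36.1% and 15.5% of all genes there. Fewer members than class genes were higher, and more were lower, under all 10 settings, which are not separate checks. Few of the single calls held throughout. Each setting has its own range of spot noise, and past it in all 10 settings were 3 of the 10 higher genes, Csad, Agxt and Bcat2. Of the 17 lower genes, 6 were past it in all 10, namely Prodh, Bhmt, Gpt2, Ass1, Uroc1 and Bckdhb. Of the 23 genes within spot noise, Amt alone kept its sign in every setting, so the signs of the others below carry no direction. Past the wider range of the software's error there were 2 genes, each gene taken at its brightest probe. They were Csad on the higher side and Prodh on the lower, beside 4.34% and 3.49% of all genes. Prodh passed that range narrowly and did not with median scaling, where its log2 ratio was -0.32.

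**Figure D2:**
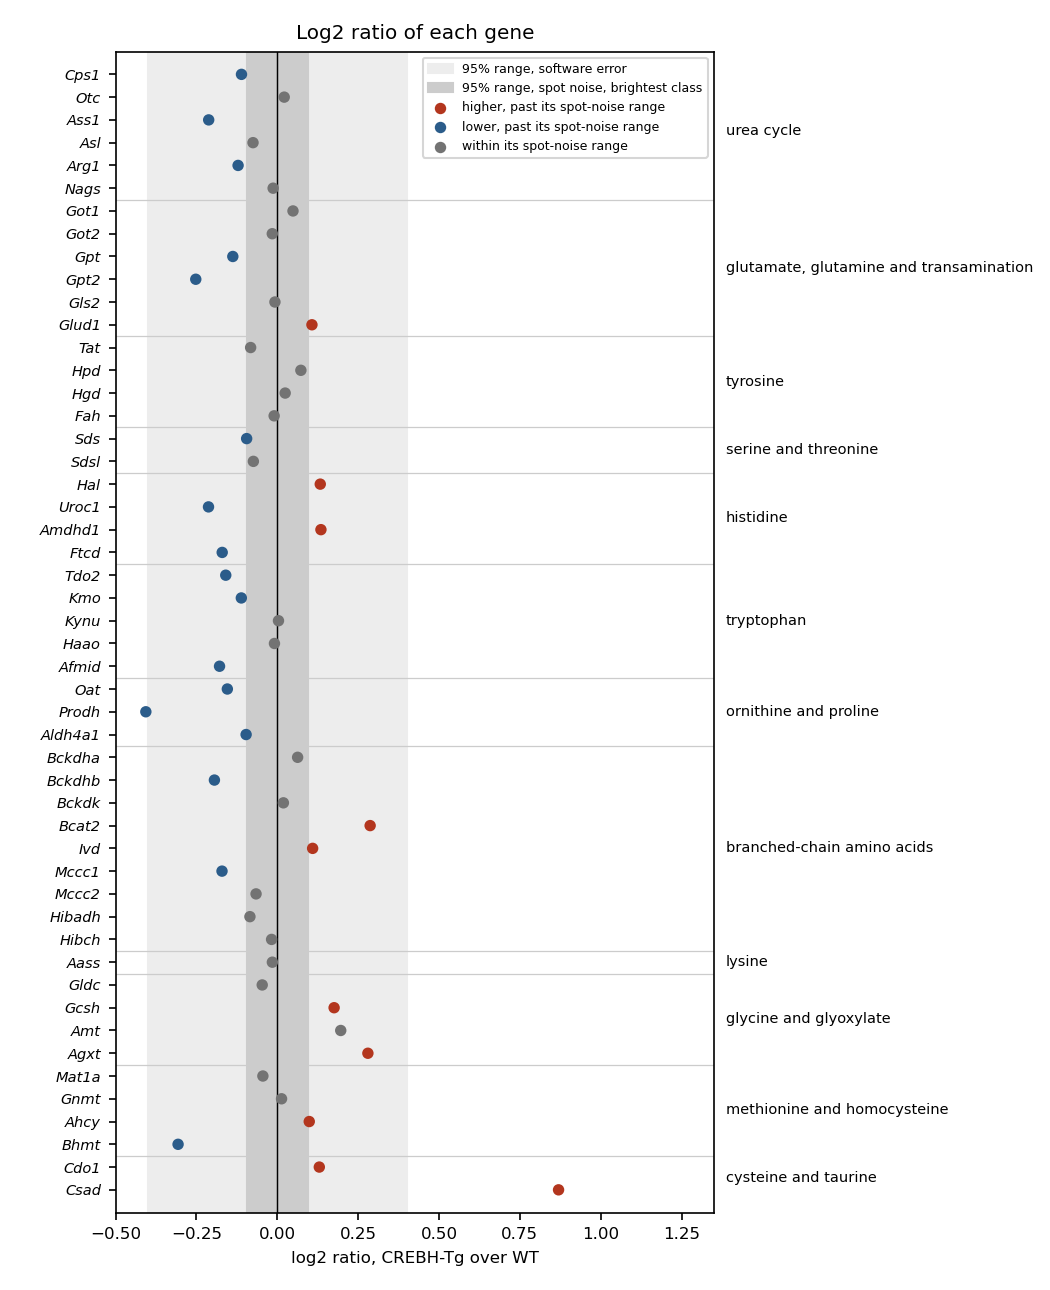
Log2 ratio of each gene, CREBH-Tg over WT, grouped by amino acid. The dark band is the 95% spot-noise range of the brightest signal class (0.095) and the light band that of the software's error (0.40). Colours use each gene's own signal class, so Amt, in the dimmest class, is within its range at 0.20. Only Csad lies well outside both bands, and Prodh sits at the edge of the light one.

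**Figure D3:**
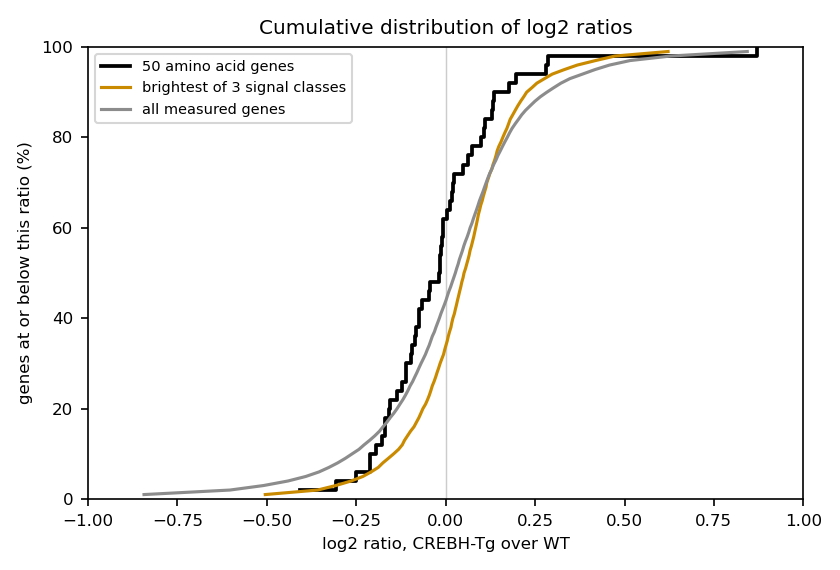
Cumulative share of genes (vertical axis, %) at or below a given log2 ratio, CREBH-Tg over WT, for the 50 amino acid genes, the brightest of 3 signal classes and all measured genes, drawn between -1 and 1. The curve of the 50 genes crosses 0 at 62.0%, above the 43.8% of all genes and the 33.9% of the brightest class.

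Sulfur amino acid breakdown held the largest difference. Cysteine is oxidised by Cdo1 to cysteine sulfinate, and Csad decarboxylates this to hypotaurine, the precursor of taurine. Csad had a signal of 57.3 in CREBH-Tg liver against 31.3 in WT liver, a log2 ratio of 0.87 from 1 probe with 1 spot. It was the 130th highest ratio of the 13881 genes and the 25th of the 4627 in the brightest class. Its log2 ratio kept to 0.76 to 0.96 over the other settings. Cdo1 had 91.2 in CREBH-Tg and 83.3 in WT liver, a log2 ratio of 0.13. It was past spot noise, but not with quantile normalization, loess or the authors' value table.

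Further genes of taurine and bile acids were chosen after the Csad value and their own values were seen. They did not show a difference of that size. Of those named below, Ado, Slc6a6, Fmo1, Slc27a5 and Cyp7a1 were within spot noise. The thiol dioxygenase Ado was at 0.17, the taurine transporter Slc6a6 at 0.051 and the hypotaurine-oxidising Fmo1 at -0.053. Baat, which joins bile acids to taurine, was at -0.12, and the bile acid ligase Slc27a5 at 0.038. Of the bile acid genes listed with them, Nr0b2, a bile acid-induced repressor, was at 0.18, the bile acid receptor Nr1h4 at -0.20, and the synthesis enzymes Cyp7a1 and Cyp8b1 at 0.084 and 0.17. The export pump Abcb11 was at 0.11.

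The start regions of the genes at each end of the range are shown because the transgene encodes a factor of the CREB3 family, whose members bind elements related to the cAMP response element. Sequences are from RefSeq on GRCm38.p6, 5′ to 3′ on the gene's strand, each of 300 bases, most of them before a transcript start. Capitals mark the 5-base core TGACG of the element on either strand. Csad has 2 annotated starts, chr15:102188994-102189293 and chr15:102205003-102205302, both on the minus strand. Prodh lies at chr16:18089141-18089440 and Bhmt at chr13:93637709-93638008, both on the minus strand.
Csad, first region: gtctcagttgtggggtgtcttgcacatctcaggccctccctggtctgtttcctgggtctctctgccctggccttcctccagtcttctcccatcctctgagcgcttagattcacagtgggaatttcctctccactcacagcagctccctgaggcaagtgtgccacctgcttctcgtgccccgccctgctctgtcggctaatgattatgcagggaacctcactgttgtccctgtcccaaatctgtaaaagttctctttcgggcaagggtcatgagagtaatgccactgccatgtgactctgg
Csad, second region: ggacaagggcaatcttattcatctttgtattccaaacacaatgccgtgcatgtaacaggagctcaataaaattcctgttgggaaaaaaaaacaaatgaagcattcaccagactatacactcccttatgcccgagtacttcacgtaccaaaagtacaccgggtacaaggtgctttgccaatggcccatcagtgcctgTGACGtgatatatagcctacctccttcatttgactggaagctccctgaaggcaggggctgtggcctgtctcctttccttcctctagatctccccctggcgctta
Prodh: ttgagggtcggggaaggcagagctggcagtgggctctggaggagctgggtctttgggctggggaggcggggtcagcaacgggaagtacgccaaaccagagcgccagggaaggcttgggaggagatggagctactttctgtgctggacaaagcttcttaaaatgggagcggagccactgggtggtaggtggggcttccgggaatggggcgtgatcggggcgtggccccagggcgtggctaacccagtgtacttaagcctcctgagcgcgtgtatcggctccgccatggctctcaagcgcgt
Bhmt: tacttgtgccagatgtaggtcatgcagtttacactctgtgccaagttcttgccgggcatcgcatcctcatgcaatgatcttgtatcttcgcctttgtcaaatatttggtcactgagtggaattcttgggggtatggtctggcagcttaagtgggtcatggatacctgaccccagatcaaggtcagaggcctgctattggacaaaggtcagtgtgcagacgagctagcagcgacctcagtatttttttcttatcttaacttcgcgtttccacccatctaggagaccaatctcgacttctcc

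The core was found once, 54 bases before the start in the second Csad region, and not in the other Csad region or in the windows of Prodh and Bhmt. Such regions were in the table for 40 of the 50 genes, and 5 of them held TGACG on either strand: Csad, Aass, Ftcd, Nags and Oat. That is 12.5%, beside 32.4% of the measured genes with a region and 23% of all genes in the table. The full 8-base element TGACGTCA, which contains the core, was in 0 of the 40, beside 3.25% of measured genes. A match is only a description of these letters in a short window.

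The urea cycle takes ammonia and aspartate to urea through carbamoyl phosphate, citrulline and argininosuccinate. Of its 6 genes, 3 were lower past spot noise, beside 13.2% of all measured genes and 15.5% of the brightest class, and none was higher. The median log2 ratio was -0.093. With median scaling it was -0.0038, and 1 gene was lower and 1 higher. With quantile normalization it was -0.19. There, and with scaling to detected probes, loess and the value table, 4 genes were lower, against 1 with normexp. Ass1, which makes argininosuccinate, had 545 in CREBH-Tg and 631 in WT liver, 1.16-fold lower, and its second probe gave 337 in CREBH-Tg and 387 in WT. Arg1, the arginase that releases urea, had 130 in CREBH-Tg and 141 in WT liver. Cps1, which makes carbamoyl phosphate, had 33.2 in CREBH-Tg and 35.8 in WT liver. The log2 ratios of these 3 genes, -0.21, -0.12 and -0.11, stayed below 0 under every setting, but Arg1 and Cps1 were within spot noise with median scaling and with normexp. Asl, the lyase that splits argininosuccinate, was at -0.075, and Nags, which makes the activator of Cps1, at -0.013, both within spot noise. Neither sign was kept with median scaling.

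Otc, which joins carbamoyl phosphate to ornithine, gave the closest look at measurement error among the members. Its brighter probe had 73.3 in CREBH-Tg and 72.2 in WT liver, a log2 ratio of 0.022. A second probe was spotted 10 times on each array and ran between 19.5 and 21.8 (median 20.5) in CREBH-Tg and between 20.5 and 23.0 (median 21.5) in WT liver. Its spot log2 ratios averaged -0.061 ± 0.021 (SD over 10 spots of the same RNA) and lay between -0.10 and -0.030, every spot below 0. The probes of Otc thus lay on opposite sides of 0, and the repeat spots scattered by less than the distance between the probes.

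**Figure D4:**
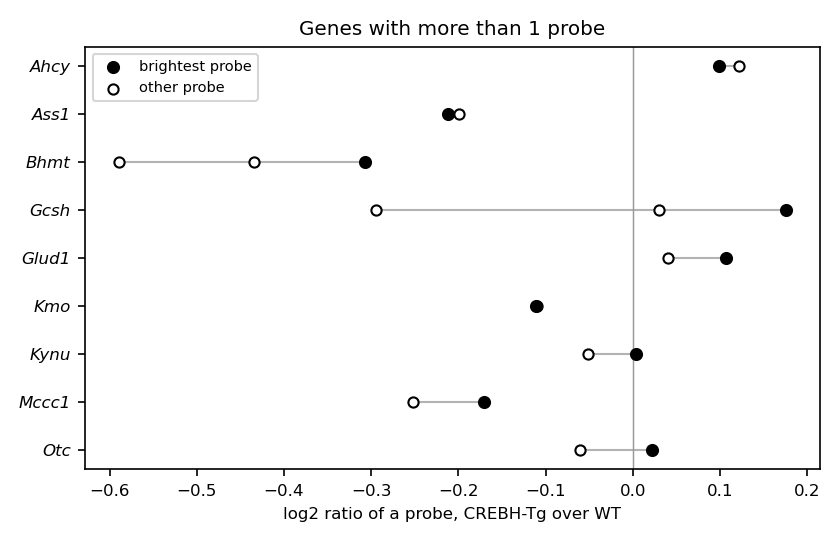
Log2 ratio, CREBH-Tg over WT, of every probe of the 9 genes with more than 1 measured probe (filled: the brightest probe, which gives the gene's value). In 6 of the 9 genes all probes lie on the same side of 0, while Gcsh, Kynu and Otc have probes on both sides.

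Enzymes that move amino groups and feed glutamate to the cycle had a median of -0.011. It became 0.078 with median scaling and -0.093 with quantile normalization and loess. Both alanine aminotransferases were lower past spot noise, Gpt not so with median scaling. Gpt2, the mitochondrial one, had 21.97 in CREBH-Tg and 26.2 in WT liver (log2 ratio -0.25), and the cytosolic Gpt 82.6 in CREBH-Tg and 90.9 in WT (-0.14). Glud1, which releases ammonia from glutamate, was on the higher side with 150 in CREBH-Tg and 140 in WT liver. Its log2 ratio was 0.11, and that of its second probe 0.040. Of the other settings that moved the member counts, only median scaling kept Glud1 past spot noise. The aspartate aminotransferases Got1 and Got2 were at 0.049 and -0.015 and the liver glutaminase Gls2 at -0.0072, all within spot noise.

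For proline and ornithine breakdown, all 3 listed genes were lower past spot noise, beside 13.2% of all measured genes. With median scaling Prodh alone was. Prodh, which oxidises proline in mitochondria, had 58.7 in CREBH-Tg and 77.8 in WT liver, a log2 ratio of -0.41, the 644th lowest of all measured genes. Oat, which takes ornithine to glutamate semialdehyde and is a pericentral enzyme, had 76.0 in CREBH-Tg and 84.5 in WT liver (-0.15). Aldh4a1, which completes the path to glutamate, had 89.2 in CREBH-Tg and 95.4 in WT. Its ratio of -0.096 barely passed spot noise, and was within it with median scaling and normexp. It was also within it with the mean over probes. There the ratio of this 1-probe gene is unchanged and only the range of spot noise differs. All 3 ratios stayed below 0 under every setting, with the group's median between -0.24 and -0.065. Prodh2, the hydroxyproline counterpart outside the 50 genes, was at -0.18.

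For tryptophan, 3 of 5 genes were lower past spot noise, beside 13.2% of all measured genes and 15.5% of the brightest class, and none was higher. With median scaling 0 of the 5 were lower, with normexp 2, and with quantile normalization and loess 4. Tdo2, the liver's first and rate-limiting step, had 54.2 in CREBH-Tg and 60.6 in WT liver (log2 ratio -0.16). Afmid, the formamidase of the second step, had 6.37 in CREBH-Tg and 7.21 in WT (-0.18). Kmo, the kynurenine hydroxylase, had 49.5 in CREBH-Tg and 53.4 in WT (-0.11), and its second probe gave the same ratio. The later enzymes Kynu and Haao were near equal at 0.0038 and -0.0087. For tyrosine none of 4 genes was past spot noise, although 2 were higher with median scaling. With scaling to detected probes, quantile normalization, loess and the value table, 1 was lower. The aminotransferase Tat was at -0.082, Hpd at 0.073, Hgd at 0.024 and the final enzyme Fah at -0.0096. Their signs turned between settings, so no direction can be given for tyrosine.

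The genes of the histidine path had ratios on both sides of 0. Hal, the lyase of the first step, had 50.8 in CREBH-Tg and 46.3 in WT liver (0.13). Uroc1, the second step, had 47.9 in CREBH-Tg and 55.5 in WT liver (-0.21). Amdhd1, which follows it, had 15.7 in CREBH-Tg and 14.3 in WT (0.13), and Ftcd, the last and a folate enzyme, had 105 in CREBH-Tg and 118 in WT (-0.17). Past spot noise, Hal and Amdhd1 were higher and Uroc1 and Ftcd lower, beside 21% and 13.2% of all measured genes. Each kept its sign under every setting, but Uroc1 alone stayed past spot noise. Ftcd was within it with median scaling, and Hal and Amdhd1 with quantile normalization, loess and the value table. Lysine had Aass alone, the mitochondrial enzyme of its first steps, at 100.2 in CREBH-Tg and 101.3 in WT liver (-0.015). Serine dehydratase, Sds, a gene strongly induced by fasting and glucagon, had 41.9 in CREBH-Tg and 44.7 in WT liver. Its ratio of -0.095 lay at the edge of spot noise, and within it with median scaling and normexp. It was also within it with the mean over probes, where again only the range differs, since Sds has 1 probe. Its relative Sdsl was within spot noise at -0.074.

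Branched-chain amino acids, which the liver oxidises mainly from their keto acids, gave ratios on both sides among 9 genes, with a median of -0.018. The keto acid dehydrogenase subunit Bckdhb had 38.9 in CREBH-Tg and 44.5 in WT liver (-0.19), whereas its partner Bckdha was at 0.063 and the inhibiting kinase Bckdk at 0.019. Bcat2, the aminotransferase that is low in hepatocytes, had 1.49 in CREBH-Tg and 1.22 in WT liver (0.29) in the middle signal class, where the range of spot noise is 0.17. In leucine breakdown, Ivd had 27.6 in CREBH-Tg and 25.6 in WT liver (0.11). Its ratio was past spot noise, but not with scaling to detected probes, quantile normalization, loess, normexp or the value table. The next enzyme's subunit Mccc1 had 10.7 in CREBH-Tg and 12.0 in WT (-0.17, second probe -0.25) and was within spot noise with median scaling. Mccc2 was at -0.066. The valine enzymes Hibadh and Hibch were at -0.084 and -0.018, within spot noise.

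The 4 glycine and glyoxylate genes had a median of 0.19, or 0.083 with the mean over probes. It is the midpoint of Gcsh, whose probes disagree in sign, and Amt, which is within spot noise. Agxt, which removes glyoxylate by making glycine, had 142 in CREBH-Tg and 117 in WT liver, a log2 ratio of 0.28 that stayed between 0.19 and 0.37 over the other settings. The glycine cleavage system gave no single direction. Gcsh, its carrier protein, had 58.0 in CREBH-Tg and 51.3 in WT liver (0.18), but its other probes gave 0.030 and, in the range of dim signals at 0.197 in CREBH-Tg and 0.241 in WT, -0.29. The mean over the 3 probes was -0.029. Gldc, the decarboxylase, was at -0.046. Amt, the aminomethyltransferase, was in the dimmest class with 0.544 in CREBH-Tg and 0.475 in WT liver.

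The methionine cycle makes the methyl donor S-adenosylmethionine and recycles homocysteine. Bhmt, its betaine-dependent arm, was lower on all 3 probes. The brightest had 606 in CREBH-Tg and 749 in WT liver (log2 ratio -0.31), the second 519 in CREBH-Tg and 701 in WT (-0.43) and the dimmest 125 in CREBH-Tg and 188 in WT (-0.59). Ahcy, which splits S-adenosylhomocysteine, had 18.7 in CREBH-Tg and 17.4 in WT liver, and its 2 probes gave 0.099 and 0.12. It was past spot noise, but not with scaling to detected probes, quantile normalization, loess, normexp or the value table. The synthetase Mat1a and the glycine methyltransferase Gnmt were within spot noise at -0.044 and 0.013.

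Further genes of the same pathways gave a like picture. Of 58 other amino acid breakdown genes, 53 were measured, with a median log2 ratio of -0.047. Past spot noise, 9 were higher and 18 lower, beside 21% and 13.2% of all measured genes. The scaling bears on both the sign and the counts: median scaling gave a median of 0.042, with 17 higher and 7 lower. The lowest were Tdh (-0.36), Dhtkd1 of lysine breakdown (-0.36), Aadat (-0.32) and Dmgdh (-0.29). Of these, Tdh and Aadat were dim and within spot noise. Among the highest were Acmsd of tryptophan breakdown (0.23), Cbs, which draws homocysteine to cysteine (0.19), and Ppm1k, the phosphatase that activates branched-chain keto acid oxidation (0.17).

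Of 13 known regulators of these enzymes, 2 were higher and 3 lower past spot noise, beside 21% and 13.2% of all measured genes. Over the other settings 0 to 5 were higher and 2 to 5 lower. Their median was -0.0036 and turned to 0.085 with median scaling. Ppargc1a, a coactivator of fasting genes, was lowest at 2.67 in CREBH-Tg and 3.58 in WT liver. Its log2 ratio of -0.42 was also past the range of the software's error, 0.40. Onecut1 was highest at 0.15, within the noise of its dim class. The zonation lists were set beside the members because amino acid enzymes are zoned. The 11 periportal genes had a median of 0.052 (-0.0086 to 0.15 over all settings, so its sign turned), from Aldh1b1 at -0.36 to Apoa4 at 2.23. Of the pericentral genes, 11 of 13 were measured, with a median of -0.063 (-0.16 to 0.026, likewise), from the ammonium transporter Rhbg at -0.82 to Axin2 at 0.37. Axin2 was dim and within spot noise. Rhbg had 1.52 in CREBH-Tg and 2.69 in WT liver. Glul, the pericentral glutamine synthetase that takes up ammonia left by the urea cycle, had 84.9 in CREBH-Tg and 93.7 in WT liver (-0.14).

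**Figure D5:**
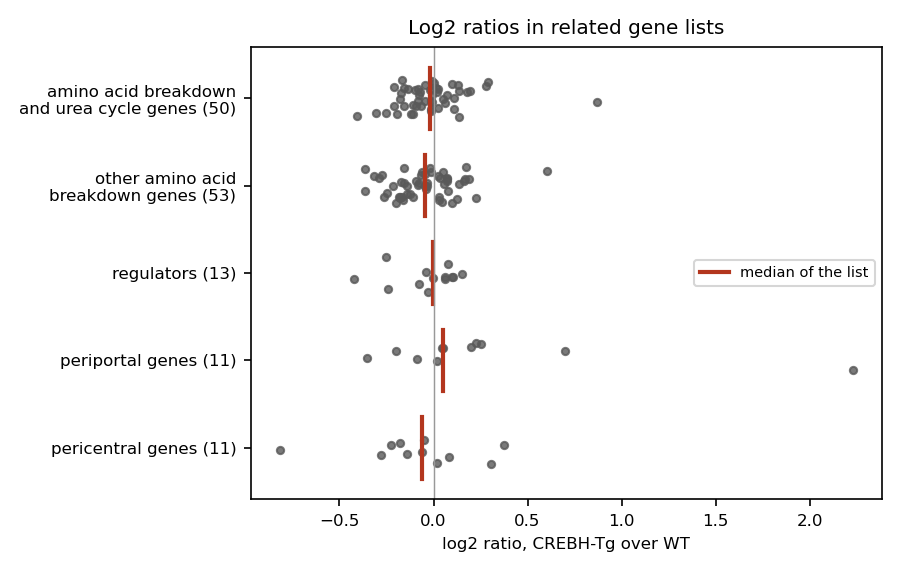
Log2 ratio, CREBH-Tg over WT, of each measured gene (points) and the list median (bar) in the 50 amino acid genes and 4 related lists, with the number measured in brackets; vertical scatter within a list has no meaning. The medians lie between -0.063 and 0.052 and turn sign with the scaling. The quartiles of the 50 genes (-0.12 and 0.059) lie closer together than those of the periportal (-0.033 and 0.24) and pericentral genes (-0.20 and 0.050). The periportal list holds Apoa4 at 2.23 and the pericentral list Rhbg at -0.82.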

How the data were processed

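Total liver RNA was pooled by genotype and put on 1 single-colour array per pool, per the labels, and each array was read with Agilent Feature Extraction 10.10.1.1, per the file headers. The deposited processed signal is an intensity, background-subtracted and detrended within each array, per the file headers, with no scaling from one array to another. The authors' deposited value table is the same intensity times 1 constant per array, 2.68 for CREBH-Tg and 2.59 for WT. Its column medians are 81.0 and 89.8, and how these constants were set is not stated in the labels or headers.

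Here log2 signals were taken relative to each array's 75th percentile. Control spots and 300 outlier spots of 59305 were left out, and spots of a probe were averaged. A gene took its brightest probe well above background, in over 50% of its spots, on both arrays. No spot was saturated. The number of arrays limits precision. Accessions of 27233 of 55677 probes matched RefSeq (GRCm38.p6, names and start regions only); the probe design is on mm9. Spot noise was taken from 276 probes with 5 or more spots, as the SD of their log2 ratios between single spots, in 3 signal classes. The software's error was carried to the ratio. No test was run across genes. The steps were tested on simulated data. All 50 genes are named. Of other pathway genes the 4 highest, the 4 lowest and any 1.5-fold apart are named, except 1 gene that is not reported here. Of regulators and zonation lists the highest and lowest are named. Glul, Prodh2, and the taurine and bile acid genes were chosen after their values were seen. Members and lists were chosen with earlier results of these data known. Alternatives were median scaling, scaling to detected probes (75th percentile), quantile normalization, loess, normexp on the median spot signal (limma 3.58.1, offset 50), the value table, the mean over probes, and no filter or a stricter one on dim probes. Python 3.11.15 and R 4.3.3 were used.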

Additional observations from a re-analysis of the deposited data

How the results depend on the processing

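All values rest on 1 array per genotype, and most on 1 probe with 1 spot, so mice, pools and hybridisations cannot be told apart. Over the 9 alternatives, 27 of the 50 genes kept their sign, among them all 17 that were lower past spot noise and 9 of the 10 that were higher. The exception is Gcsh, at -0.029 with the mean over its probes. Past spot noise in every alternative were 3 of the 10 higher and 6 of the 17 lower genes. The counts moved with the scaling between arrays, since the 0.089 that median scaling adds is close to the spot noise of bright genes. Below 0 lay 31 genes, and 17 with median scaling. Higher past spot noise were 10, against 16 with median scaling, 3 with quantile normalization, 4 with loess and 4 with the authors' value table. Lower were 17, against 6 with median scaling and 26 with loess. Of the other amino acid breakdown genes, 9 were higher, against 17 with median scaling, 5 with quantile normalization and 5 with the value table, and 18 were lower, against 7 with median scaling. The median of the 50 genes lay between -0.096 and 0.073, and its difference from the median of the brightest class between -0.094 and -0.068. Without Csad, an alternative added after the data were seen, the median was -0.018. No paired analysis was possible because each genotype has 1 array.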

Other observations

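Genes of the path from choline through betaine and sarcosine to glycine were listed together after their values were seen. All 7 lay below 0 in CREBH-Tg liver relative to WT liver, beside 43.8% of all measured genes, with a median log2 ratio of -0.18 (-0.26 to -0.089 over all settings, and 5 of the 7 below 0 at the least). Past spot noise 5 were lower, beside 13.2% of all measured genes, and 3 with median scaling. The choline dehydrogenase Chdh had 5.15 in CREBH-Tg and 5.35 in WT liver, and Aldh7a1, which oxidises betaine aldehyde, had 188 in CREBH-Tg and 213 in WT. Bhmt was at -0.31, and its relative Bhmt2 had 56.0 in CREBH-Tg and 59.2 in WT. Dmgdh, which oxidises dimethylglycine, had 62.2 in CREBH-Tg and 75.9 in WT liver (-0.29). Sardh, which oxidises sarcosine, had 88.0 in CREBH-Tg and 98.3 in WT (-0.16), and the peroxisomal sarcosine oxidase Pipox 74.4 in CREBH-Tg and 84.2 in WT (-0.18). Gnmt, which makes sarcosine from glycine, was near equal at 0.013. Since the list was drawn up from these values, it gives no independent support.

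Enzymes around glyoxylate were also read together after their values were seen. Agxt (0.28), the reductase Grhpr (0.14) and the glycolate oxidase Hao1 (0.072) were above 0. Agxt2, the mitochondrial aminotransferase, had 20.2 in CREBH-Tg and 23.2 in WT liver (-0.20), and Hoga1, which yields glyoxylate from hydroxyproline, was at -0.016. The 23 members listed here as mitochondrial had a median of -0.015 and the 27 not on that list a median of -0.044. The list may leave out enzymes found wholly or partly in mitochondria, and the difference was not tested.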
